A study of Mus musculus with 9 samples.

Results

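Natural killer (NK) cells carrying a kinase-inactive form of the Janus kinase TYK2 (Tyk2K923E) were compared with wild-type (WT) NK cells on microarrays. The comparison was of the 6 arrays titled WT or Tyk2K923E, of 9 in the series, over 12579 genes. Its estimate of spread came from all 9 arrays. Arrays were matched by experiment number, because each of 3 independent experiments gave 1 WT, 1 Tyk2K923E and 1 Tyk2-/- array. The question was which NK cell transcripts depend on the catalytic activity of TYK2 rather than on the presence of the protein, and the 3 arrays labelled Tyk2-/-, a genotype named for the loss of the gene, are the second reference.

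All mice were female and on the C57BL/6N background, and their age is not given in the sources used here. Splenic NK cells were enriched with magnetic beads against DX5, and each array holds cells pooled from 3 to 4 mice of 1 genotype. The cells of all 3 genotypes, WT included, were then cultured for 7 days with recombinant human IL-2 at 5000 U/ml and split on days 4 and 6. The labels name no other stimulus, so the values describe IL-2-expanded cells without added interferon or IL-12. Because the samples are bulk RNA, fewer cells of a type and less RNA per cell cannot be told apart.

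TYK2 sits on the intracellular tails of several cytokine receptor chains and works together with another Janus kinase on the partner chain. Its best known receptors in NK cells are those for type I interferons and for IL-12, and it also serves the IL-10, IL-22, IL-23 and IL-27 receptors. Ligand binding lets the paired kinases phosphorylate STAT proteins, and at the type I interferon receptor this assembles a complex with STAT2 and IRF9 that binds interferon-stimulated response elements. Interferon-gamma acts on gamma-activated sites, and IL-12 acts mainly through STAT4.

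The deposited values were log2 RMA values, and the array medians over 41345 probe sets lay between 5.42 and 5.48. A first principal component with 61% of the variance split experiment 1 from both others in every genotype. Pairs of arrays correlated at 0.966 to 0.997 across the genes, which are not independent replicates. All 11 NK cell markers passed the filter on dim probe sets, among them Ncr1, Klrb1c, Eomes and Tbx21. Of the T cell markers, 13 of the 15 with a probe set also passed, against 2 of 10 for B cells, 3 of 13 for monocytes and macrophages and 3 of 13 for neutrophils.

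Tyk2 transcript itself did not separate WT from Tyk2K923E cells. Its probe set read 8.68, 8.56 and 8.63 in WT cells of experiments 1 to 3 and 8.63, 8.43 and 8.52 in Tyk2K923E cells. The groups overlapped, and the difference was -0.10 ± 0.15 (SE, n = 3 per genotype, limma, adjusted p = 0.883). The mutation leaves the transcript in place, so this value does not check the Tyk2K923E label. On the arrays labelled Tyk2-/- the probe set read 9.56, 8.63 and 8.85, not below WT in any experiment (difference 0.39 ± 0.15, adjusted p = 0.488), which goes against that label. Whether the probe set covers the deleted part of the gene is not given in the sources used here, so each value of these libraries is given as that of the label.

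Between Tyk2K923E and WT cells, 11 of 12579 genes passed an adjusted p of 0.05 with the experiments paired (0.0874%, limma with Benjamini-Hochberg adjustment over all genes). Of these, 8 fell (0.0636% of the genes tested) and 3 rose (0.0238%). The genes that fell were 5 type I interferon-stimulated genes (Ifi27, Rtp4, Ifi214, Mx1 and Lgals3bp), the inflammatory caspase gene Casp4, the NK cell receptor gene Cd160 and the integrin gene Itga2. Mid1, Cfap300 and Myrf rose. Over all genes the balance was even, with 6178 lower and 6393 higher, a median difference of 0.002 and 5th and 95th percentiles of -0.204 and 0.192.

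Pairing carried most of these calls. Without the experiment as a block, Ifi27 alone passed (0.00795% of genes, adjusted p = 0.00537), and the unpaired adjusted p of the 10 others lay between 0.155 (Cd160, Itga2 and Rtp4) and 0.773 (Cfap300). With the experiment as a random block 9 genes passed, and Mid1 (adjusted p = 0.0541) and Cfap300 (0.0804) did not. With no filter on dim probe sets Ifi27 alone passed, and the 10 others had an adjusted p of 0.149 or 0.15. The spread was estimated over all 9 arrays, those labelled Tyk2-/- included. With only the 6 arrays compared, 2 genes passed, Ifi27 (adjusted p = 0.00803) and Mid1 (0.0391). The adjusted p of the others then lay between 0.0748 and 0.113. Each of the 6 arrays mattered as well: the count was 3, 1 and 1 without the WT array of experiment 1, 2 or 3, and 6, 2 and 1 without the Tyk2K923E array of experiment 1, 2 or 3. Ifi27 passed in every one of these fits, and each of the 11 genes kept its direction in them. An exact test of 3 values against 3 cannot give a p below 0.1, nor one of 3 pairs below 0.25.

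**Figure D1:**
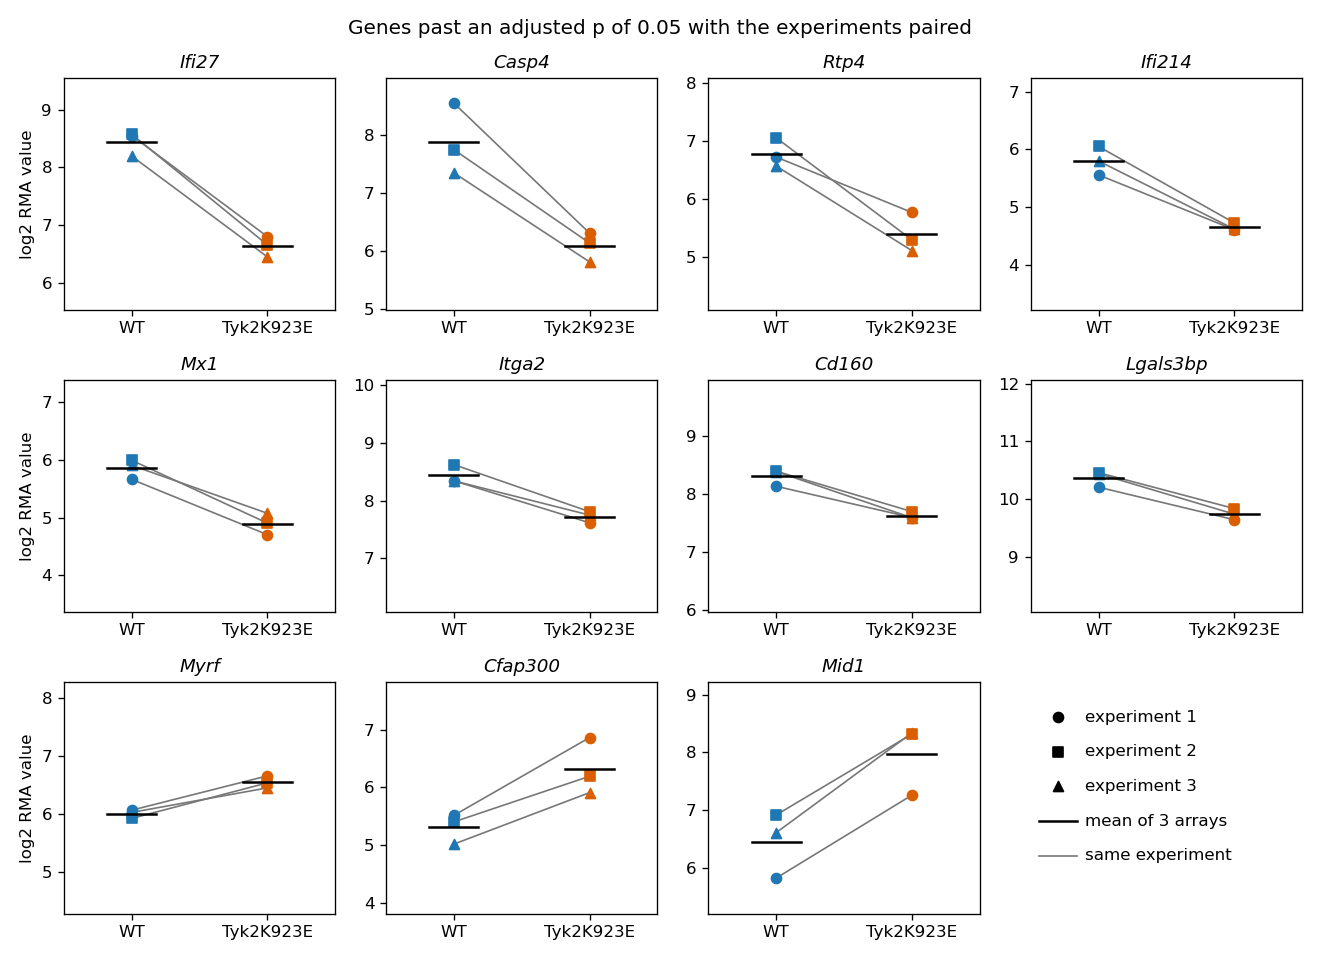
Log2 RMA value (vertical axis, a window of equal height per gene) of the 11 genes past an adjusted p of 0.05, in WT and Tyk2K923E cells (horizontal axis), with 1 symbol per array, grey lines joining arrays of the same experiment and black bars for the mean of 3 arrays. For each gene the 3 Tyk2K923E arrays lie wholly below or wholly above the 3 WT arrays, and Ifi27 drops from 8.55, 8.58 and 8.20 to 6.80, 6.66 and 6.45.

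Ifi27, a small interferon-induced protein of intracellular membranes, had the smallest adjusted p. It read 8.55, 8.58 and 8.20 in WT cells and 6.80, 6.66 and 6.45 in Tyk2K923E cells of experiments 1 to 3. Each mutant array was thus more than 1 log2 unit under the lowest WT array, and the difference was close to the same in every experiment (-1.75, -1.92 and -1.75). The transcript fell by 1.80 ± 0.08 (SE, n = 3 per genotype, adjusted p = 0.000278), a 3.49-fold lower value.

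Rtp4, an interferon-induced protein of the receptor transporter family, read 6.72, 7.05 and 6.57 in WT cells and 5.76, 5.29 and 5.10 in Tyk2K923E cells. The groups did not overlap, and Rtp4 fell by 1.40 ± 0.13 (adjusted p = 0.0375). Ifi214, a member of the IFI200 family of nucleic acid-binding proteins, read 5.56, 6.05 and 5.80 against 4.61, 4.73 and 4.62. It fell by 1.15 ± 0.14 (adjusted p = 0.0375, and 0.15 with no filter), and it entered the test through its WT arrays alone, since all others were under the array medians. Both mutant means (5.38 for Rtp4 and 4.65 for Ifi214) were under the array medians, which limits how far the size of these falls can be read.

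Mx1, a dynamin-like antiviral GTPase, read 5.66, 5.99 and 5.91 in WT cells and 4.71, 4.91 and 5.08 in Tyk2K923E cells. It fell by 0.96 ± 0.11 (adjusted p = 0.0375), again to a mean (4.90) under the array medians. Of the 6 arrays compared, only the WT arrays of Mx1 reached those medians, and with no filter its adjusted p was 0.15. Lgals3bp, a secreted glycoprotein that binds galectins, read 10.21, 10.46 and 10.44 against 9.64, 9.84 and 9.74. Its groups were separate as well, and it fell by 0.63 ± 0.07 (adjusted p = 0.0375).

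The fall of these 5 genes stood within a broad displacement of the type I interferon-stimulated list. Of its 74 members, 67 had a probe set with a single gene symbol, and 54 passed the filter. Among those 54, 51 were lower in Tyk2K923E cells and the median difference was -0.29, against 0.002 over all genes. An unadjusted p under 0.05 was reached by 35 of the 54 on the lower side (64.8%) and by 1 on the higher side, where 5.14% and 4.87% of all genes did so. Without pairing, 26 of the 54 reached it on the lower side, against 2.41% of all genes. With no filter on dim probe sets, 62 of 67 members were lower and the median was -0.25.

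The displacement was alike in the 3 experiments, with list medians of -0.30, -0.29 and -0.30. In all 3 experiments 41 of the 54 members were lower (14.6% of all genes were, and 16.2% were higher in all 3), and for 25 members every Tyk2K923E array lay below every WT array (3.80% of all genes). The 5 genes named above and Usp18, Trim30d, Ifi209, Parp12, Oasl1, Phf11b, Slfn1, Slfn2, Slfn8 and Trim30a had differences of -0.60 or beyond. Irf9, Irf7, Lgals9 and Zbp1 lay between -0.45 and -0.36, and Stat2, Bst2, Rsad2 and Ifih1 lay between -0.09 and -0.02.

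**Figure D2:**
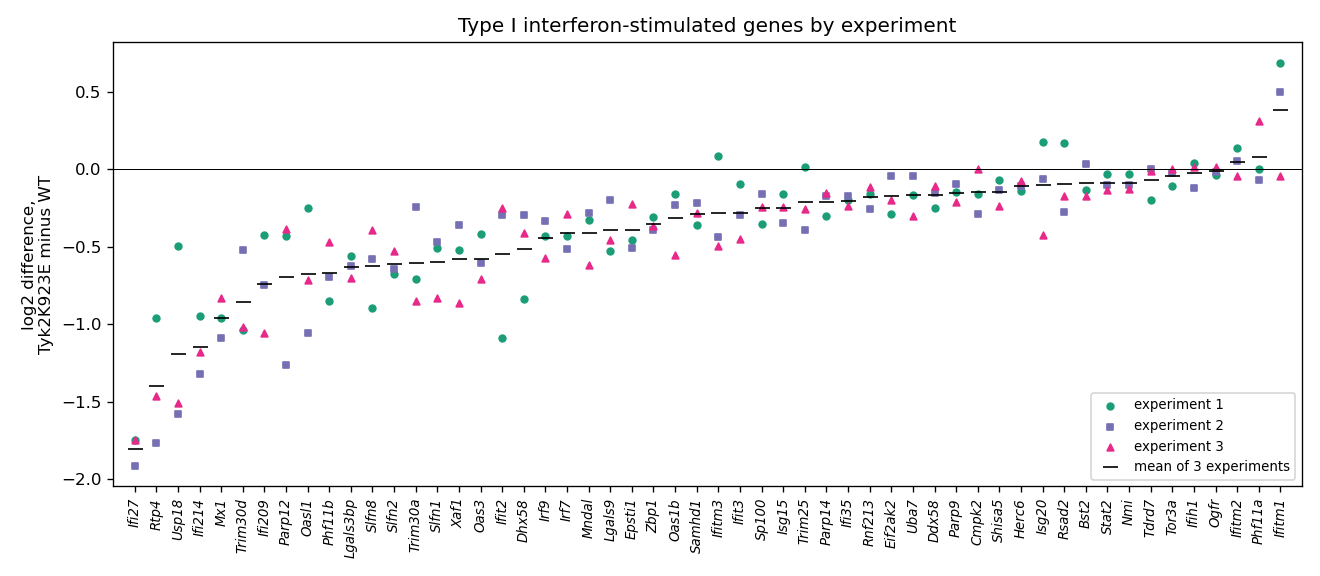
Log2 difference, Tyk2K923E minus WT (vertical axis), of the 54 type I interferon-stimulated genes tested (horizontal axis, ordered by the mean), with 1 symbol per experiment and a bar for the mean of 3 experiments. The means run from -1.80 (Ifi27) to 0.38 (Ifitm1), and 51 of the 54 are below 0.

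Usp18, a protease that removes ISG15 from proteins and dampens signalling at the interferon receptor, had the largest difference among members that missed the threshold. It read 6.67, 7.65 and 7.54 in WT cells and 6.17, 6.07 and 6.03 in Tyk2K923E cells. The mutant arrays were nearly level, and the WT array of experiment 1 stood below the other two, so the difference was -0.50 in experiment 1 and -1.58 and -1.51 in experiments 2 and 3 (mean -1.19 ± 0.19, adjusted p = 0.0734).

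Among the factors of the pathway, Irf9, the DNA-binding partner of STAT2, read 8.58, 8.36 and 8.28 in WT cells and 8.15, 8.02 and 7.71 in Tyk2K923E cells. Its groups did not overlap, and the difference was -0.45 ± 0.07 (adjusted p = 0.0684). Irf7, the interferon-inducible amplifier of interferon responses, differed by -0.41 ± 0.06 (adjusted p = 0.0696). Stat2 read 8.17, 8.25 and 8.24 against 8.14, 8.15 and 8.10, a difference of -0.09 ± 0.07 (adjusted p = 0.762). Isg15, the ubiquitin-like modifier, overlapped between the genotypes and differed by -0.25 ± 0.15 (adjusted p = 0.653). Ifitm1, a membrane protein that restricts virus entry, was the member with the highest difference (0.38 ± 0.13, adjusted p = 0.373), from 0.68 in experiment 1 to -0.04 in experiment 3.

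**Figure D3:**
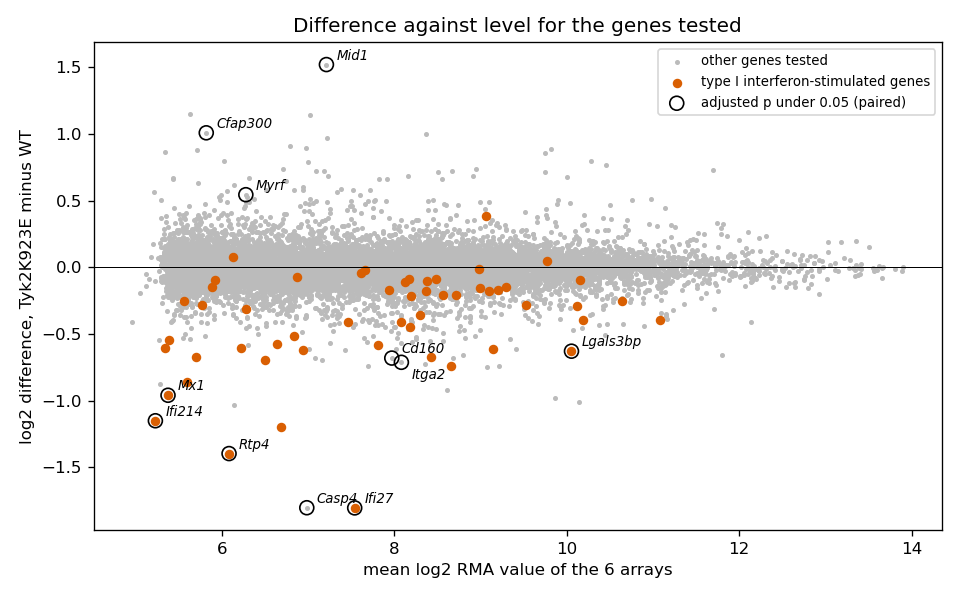
Log2 difference, Tyk2K923E minus WT (vertical axis), against the mean log2 RMA value of the 6 arrays (horizontal axis) for the 12579 genes tested, with type I interferon-stimulated genes in orange and the 11 genes past an adjusted p of 0.05 ringed and named. Most grey points lie near 0, and 51 of 54 orange points lie under 0.

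Promoters of 4 interferon-responsive genes are shown because they carry the elements through which interferons act. They were chosen after the expression values were seen. RefSeq promoter sequences (GRCm38.p6) were found for 9880 of the genes tested and for 7 of the 11 genes past the threshold, with Ifi27, Mx1, Rtp4 and Myrf missing. Each window held 250 bases before and 50 after the gene start, and the last 120 bases before the start are printed 5′ to 3′ on the gene's strand. Capitals mark matches, on either strand, to the response element core (GAAA and GAAA with any 2 bases between) or to the gamma-activated site (TTC and GAA with any 3 bases between). The windows are chr1:173535958-173536077 (minus strand) for Ifi214, chr4:156200819-156200938 (minus) for Isg15, chr7:104507850-104507969 (minus) for Trim30d and chr11:58199436-58199555 (plus) for Igtp.
Ifi214: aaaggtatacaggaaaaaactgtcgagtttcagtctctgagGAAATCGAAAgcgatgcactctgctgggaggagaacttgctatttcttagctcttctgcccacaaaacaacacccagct
Isg15: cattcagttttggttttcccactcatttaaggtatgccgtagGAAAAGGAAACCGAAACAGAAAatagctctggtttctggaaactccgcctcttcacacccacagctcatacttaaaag
Trim30d: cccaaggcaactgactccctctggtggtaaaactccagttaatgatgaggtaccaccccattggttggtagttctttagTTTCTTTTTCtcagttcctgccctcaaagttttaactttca
Igtp: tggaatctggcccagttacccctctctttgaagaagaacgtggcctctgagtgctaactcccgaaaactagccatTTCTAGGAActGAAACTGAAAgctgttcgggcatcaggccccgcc

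Isg15 holds 3 overlapping core matches, and Trim30d holds its match on the opposite strand. Igtp holds a core and a gamma-activated site side by side without overlap. Of the 8 genes that fell, 5 had a promoter entry (Casp4, Cd160, Ifi214, Itga2 and Lgals3bp), of which Ifi214 matched the core and Cd160 the gamma-activated site. In the type I interferon list 22 of 44 promoters matched the core (50%), against 359 of 9880 for all genes tested (3.63%). Within the 250 bases before the start alone, 16 of 44 (36.4%) and 308 of 9880 (3.12%) matched the core. Members with small differences matched it too, among them Rsad2, Stat2, Ifih1 and Bst2 at -0.09 to -0.02. A match describes letters in this window and not a bound site.

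The chains of receptors that use TYK2, partner chains such as Ifnar2 included, were slightly lower as a group. Of 14 members 10 passed the filter, all 10 were lower, the median difference was -0.16, and 4 had an unadjusted p under 0.05 (40%, against 5.14% of all genes on the lower side). None passed the threshold. Without pairing 1 of the 10 had such a p, against 2.41% of all genes, and without experiment 1 the list had 8 of 10 lower. Il10rb, the chain shared by the IL-10, IL-22 and interferon-lambda receptors, read 10.52, 10.45 and 10.36 in WT cells and 10.19, 10.04 and 10.02 in Tyk2K923E cells. Its groups did not overlap (difference -0.36 ± 0.08, adjusted p = 0.159). Ifnar2, the type I interferon receptor chain that binds JAK1, read 9.97, 9.57 and 9.55 against 9.40, 9.42 and 9.42 (difference -0.28 ± 0.10, adjusted p = 0.373). Ifnar1, the chain to which TYK2 binds, differed by -0.14 ± 0.07 (adjusted p = 0.561). The IL-12 receptor chains Il12rb1 and Il12rb2 differed by -0.09 ± 0.08 and -0.18 ± 0.08, and both overlapped between the genotypes.

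Of 10 JAK and STAT genes tested, 8 were lower with a median of -0.09, and Irf9 and Stat4 had an unadjusted p under 0.05 (20%, against 5.14% of all genes). The list rested on experiment 1: without its Tyk2K923E array 5 of 10 were lower with a median of -0.0063, and without all its arrays 5 of 10 with one of -0.03. Stat4, the main transducer of IL-12, read 11.10, 11.17 and 11.07 in WT cells and 10.44, 10.89 and 10.70 in Tyk2K923E cells. All mutant arrays were lower, most so in experiment 1, and the difference was -0.44 ± 0.09 (adjusted p = 0.139). Jak1, Stat3, Stat5a, Stat5b and Stat6 lay between -0.10 and 0.06. Jak3 was not analysed here.

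Negative regulators of the pathway gave 15 of 19 lower with a median of -0.07, and 5 had an unadjusted p under 0.05 (26.3%, against 5.14% of all genes). The median was -0.03 without the Tyk2K923E array of experiment 1 and -0.11 without the WT array of experiment 3. Apart from Usp18, the members with that p were Cish, Socs1, Socs3 and Ptpn6, with differences of -0.29, -0.27, -0.18 and -0.23. Without pairing 2 of the 19 had such a p on the lower side, against 2.41% of all genes. Socs1 and Cish are feedback inhibitors, the first induced by interferons and the second by IL-2 through STAT5.

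Interferon-gamma-inducible GTPases and factors, which defend against intracellular pathogens and are induced in part through IRF1, had 13 of 14 tested members lower and a median of -0.29. On the lower side 9 had an unadjusted p under 0.05 (64.3%, against 5.14% of all genes), and on the higher side only Irf8 did (0.21). Igtp read 8.50, 8.68 and 8.67 in WT cells and 8.01, 8.41 and 8.09 in Tyk2K923E cells, with no overlap (difference -0.45 ± 0.09, adjusted p = 0.132). Irgm2 and Irgm1, relatives of Igtp that control it, differed by -0.36 and -0.34. Irf1, a transcription factor induced by interferon-gamma, differed by -0.29, and Gbp8, a guanylate-binding protein, by -0.75. Unlike the type I list, this one differed among experiments, with medians of -0.35, -0.12 and -0.38. T cell markers had medians of -0.47, 0.03 and -0.44 in the same experiments, and their part in this result was not tested. In promoters of this list, 6 of 8 matched the response element core and 6 of 8 the gamma-activated site (75.0% each), against 3.63% and 7.97% of all promoters.

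Genes of MHC class I antigen presentation had 18 of 20 tested members lower, a median of -0.15, and 9 lower members with an unadjusted p under 0.05 (45%, against 5.14% of all genes). Without pairing 3 of the 20 had such a p on the lower side, against 2.41% of all genes. Nlrc5, the transactivator of class I genes, differed by -0.45, and Tap1, a subunit of the peptide transporter, by -0.35. H2-K1, a classical class I heavy chain, differed by -0.31, and the immunoproteasome subunits Psmb9 and Psmb8 by -0.27 and -0.17. B2m, the common light chain, was lower by less (-0.08), and Calr, a chaperone of the endoplasmic reticulum, was higher (0.24). H2 genes resemble each other closely, so cross-hybridisation between them cannot be separated.

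Casp4, the mouse caspase-11 gene whose product senses cytosolic lipopolysaccharide, had the second largest fall of all genes. It read 8.56, 7.75 and 7.35 in WT cells and 6.31, 6.14 and 5.81 in Tyk2K923E cells. The spread was wider in WT cells (SD 0.61) than in mutant cells (SD 0.25), and the lowest WT array still exceeded the highest mutant array. Casp4 fell by 1.80 ± 0.22 (adjusted p = 0.0462), a 3.49-fold lower value. Casp1, the caspase of the canonical inflammasome and also on chromosome 9, read 9.48, 9.05 and 8.82 against 8.86, 8.22 and 8.31 (difference -0.65 ± 0.14, adjusted p = 0.155). The other inflammasome genes tested (Pycard, Gsdmd, Nlrp3, Aim2 and Il18) lay between -0.16 and 0.06.

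Casp4 and Cfap300 lie on chromosome 9, as Tyk2 does, and 46 and 38 measured genes separate them from Tyk2. They are the 2 genes past the threshold among 690 measured on that chromosome, beside 11 of 12579 over all genes (0.0874%). Cfap300, named for cilia and flagella, read 5.52, 5.40 and 5.02 in WT cells and 6.86, 6.19 and 5.91 in Tyk2K923E cells. It rose by 1.01 ± 0.12 (adjusted p = 0.0375) from a WT mean (5.31) under the array medians. The 24 measured genes nearest to Tyk2, 12 on each side, differed by -0.56 (AB124611) to 0.10, with a median of -0.05, 16 lower, 3 with an unadjusted p under 0.05 (10.0% of all genes had one in either direction) and none past the threshold. Whether the position of these genes has a part in their differences was not tested.

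Receptors of the NK cell surface were lower in several families. The group of NKG2, CD94, Klri, Klre and NKR-P1 receptors, encoded in the NK gene complex, had 12 of 14 tested members lower and a median of -0.33, with 8 lower and 1 higher at an unadjusted p under 0.05 (57.1% and 7.14%, against 5.14% and 4.87% of all genes). Its medians by experiment were -0.49, -0.28 and -0.14, and the median was -0.21 without experiment 1 or without its Tyk2K923E array. Without pairing 4 of the 14 members were lower at an unadjusted p under 0.05, against 2.41% of all genes. Klrk1, the activating receptor NKG2D, read 10.21, 10.44 and 10.26 in WT cells and 9.67, 9.89 and 9.94 in Tyk2K923E cells, without overlap (difference -0.47 ± 0.07, adjusted p = 0.0734). Klrc3, an NKG2 gene, read 6.39, 7.00 and 6.58 against 5.84, 5.16 and 5.87 (difference -1.03 ± 0.21, adjusted p = 0.132). Klrd1, the CD94 partner chain of the NKG2 receptors, differed by -0.35. Klrg1, a receptor of mature NK cells, went the other way and read 11.85, 11.58 and 11.48 against 11.99, 11.90 and 11.91 (difference 0.30 ± 0.10, adjusted p = 0.359).

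Only 4 of 11 Ly49 genes, receptors for MHC class I, could be tested, 3 of them lower with a median of -0.38 (by experiment -0.24, -0.67 and -0.13). Without experiment 2 or without its Tyk2K923E array the median was -0.19. Klra6 and Klra9 differed by -0.74 and -0.47, and Klra2 by 0.46. Ly49 genes closely resemble each other, as do Klrc1, Klrc2 and Klrc3, so their probe sets may read more than the gene named.

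Cd160, a receptor of NK cells and T cells that binds HVEM, read 8.14, 8.40 and 8.39 in WT cells and 7.60, 7.70 and 7.59 in Tyk2K923E cells. The mutant arrays agreed closely (SD 0.06), and Cd160 fell by 0.68 ± 0.07 (adjusted p = 0.0375). It belongs to a list of 26 tested activating receptors, adaptors and kinases, of which 16 were lower with a median of -0.14, 9 of them with an unadjusted p under 0.05 (34.6%, against 5.14% of all genes). The median was -0.08 without experiment 1, -0.09 without its WT array and -0.08 without its Tyk2K923E array. Cd2 and Lat, an adhesion receptor and a T cell adaptor, both differed by -0.48, and Cd226, the activating receptor DNAM-1, by -0.44. Ncr1, the receptor NKp46, differed by -0.13, and the signalling adaptors Tyrobp and Hcst by 0.14 and 0.04. Sh2d1b2, a SLAM-family adaptor, was higher by 0.72 (adjusted p = 0.184) with overlapping groups.

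Itga2 encodes CD49b, the antigen that the DX5 antibody recognises, and the cells of both genotypes had been selected on it before culture. It read 8.34, 8.62 and 8.34 in WT cells and 7.62, 7.81 and 7.75 in Tyk2K923E cells. The groups were separate, and Itga2 fell by 0.71 ± 0.08 (adjusted p = 0.0375). Whether the selection has a part in this difference was not tested. Of 19 integrins and adhesion molecules 12 were lower with a median of -0.11, or -0.18 without the Tyk2K923E array of experiment 2. Itgam, the maturation marker CD11b, read 9.57, 8.41 and 8.16 against 8.73, 7.62 and 7.62, a difference of -0.72 ± 0.16 that was present in each experiment although the groups overlapped (adjusted p = 0.168). Itgax, the CD11c chain, differed by -0.68, Itga1, the CD49a chain, by -0.39, and Itgav by 0.19.

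Among checkpoint receptors 8 of 10 were lower (median -0.15, or -0.09 without experiment 1 or its WT array and -0.24 without experiment 2), with Lag3 and Tigit at -0.53 and -0.34 and Havcr2 at 0.32. Of 12 chemotaxis receptors tested 9 were lower, with a median of -0.05 and medians by experiment of -0.28, -0.08 and -0.14. An unadjusted p under 0.05 was reached by 5 on the lower side (41.7%, against 5.14% of all genes). They were led by Cxcr6 (-0.62), Ccrl2 (-0.41) and Cxcr3 (-0.40), the receptor for interferon-induced chemokines.

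Ccl5, a chemokine made by NK cells and T cells, read 10.78, 10.63 and 10.51 in WT cells and 9.91, 9.35 and 9.64 in Tyk2K923E cells. The lowest WT array exceeded the highest mutant array, and the difference of -1.01 ± 0.14 missed the threshold (adjusted p = 0.0583). Ifng, the gene of interferon-gamma, read 6.69, 6.72 and 6.74 against 6.39, 6.66 and 6.57 (difference -0.17 ± 0.09, adjusted p = 0.562). Ccl3, a chemokine released on activation, differed by -0.52, from 0.04 in experiment 1 to -0.97 in experiment 2. Of the 11 cytokine and chemokine genes tested 8 were lower, with a median of -0.17 that was -0.17 in experiment 3, -0.06 in experiment 2 and 0.09 in experiment 1. With no filter it was -0.06 over 18 genes.

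Death ligands and other TNF superfamily members had 7 of 9 tested genes lower and a median of -0.29, and 6 of the 7 had an unadjusted p under 0.05 (66.7% of the 9, against 5.14% of all genes). Tnfsf10, the gene of TRAIL, read 7.44, 7.68 and 7.50 in WT cells and 7.14, 7.13 and 6.65 in Tyk2K923E cells, with no overlap (difference -0.57 ± 0.11, adjusted p = 0.129). Ltb, the gene of lymphotoxin-beta, differed by -0.53 ± 0.08 (adjusted p = 0.0696), Lta by -0.32 and Tnf by -0.29, whereas Fasl differed by -0.13. The list medians by experiment were -0.36, -0.10 and -0.37, beside -0.47, 0.03 and -0.44 for the T cell markers, whose part was not tested.

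Granule genes did not share the direction of the interferon-stimulated genes. Of 23 tested, 9 were lower and 14 higher, with a median of 0.03, and on the higher side 6 had an unadjusted p under 0.05 against 1 on the lower side (26.1% and 4.35%, beside 4.87% and 5.14% of all genes). Gzmb, the main cytotoxic protease, read 13.23, 13.41 and 13.39 in WT cells and 13.30, 13.39 and 13.39 in Tyk2K923E cells (difference 0.02 ± 0.06). Prf1, the pore-forming protein perforin, read 12.87, 12.96 and 12.98 against 13.13, 13.11 and 13.14. Each mutant array was higher, by a small amount (difference 0.19 ± 0.06, adjusted p = 0.32). Serpinb9b, a granzyme inhibitor of the serpin family, differed by 0.51 ± 0.09 (adjusted p = 0.0916), Gzmf by 0.73 and Ctsw, a cathepsin of cytotoxic cells, by -0.36. Granzymes D to G are close copies, so their probe sets may read more than 1 gene.

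**Figure D4:**
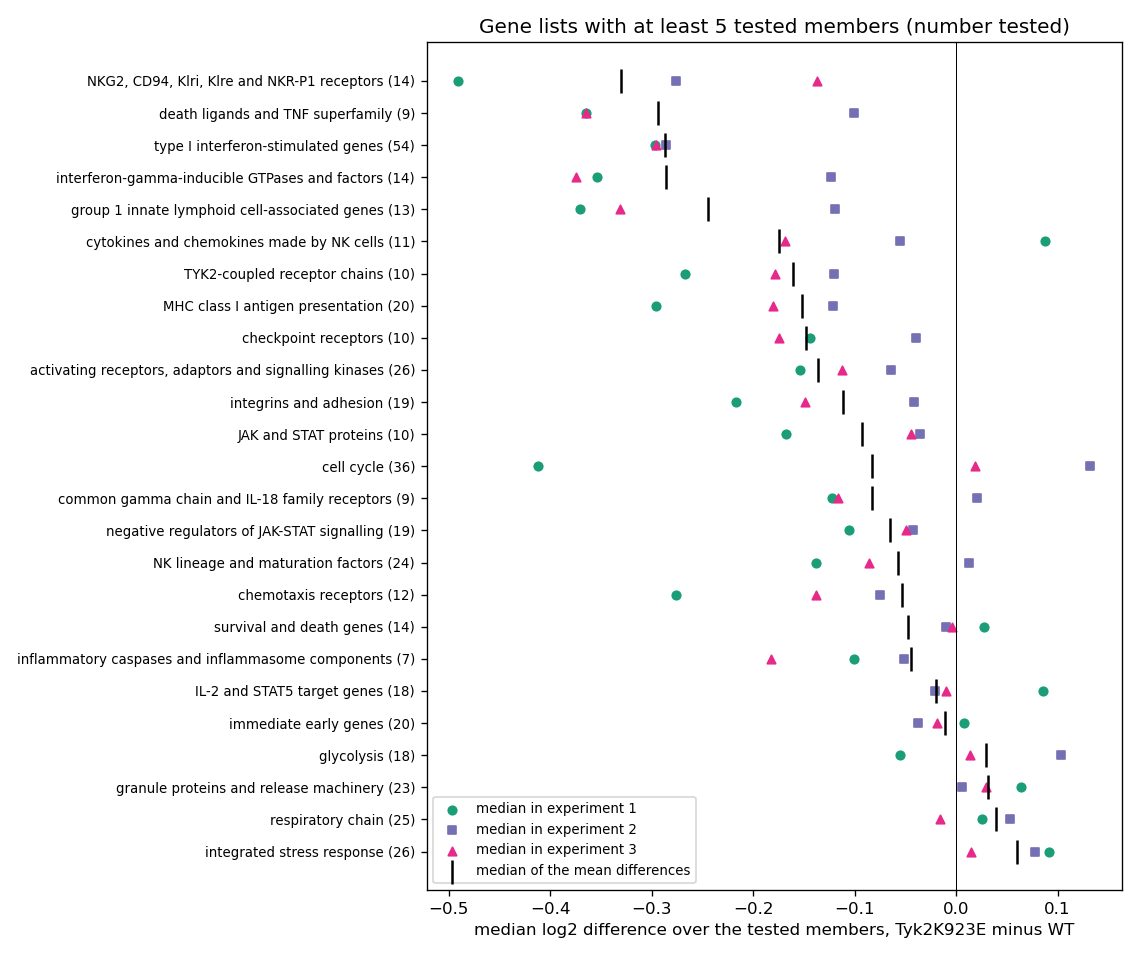
Median log2 difference, Tyk2K923E minus WT (horizontal axis), over the tested members of each gene list (vertical axis, number tested in brackets), with coloured symbols for the 3 experiments and a black bar for the median of the mean differences. The type I interferon-stimulated list has medians of -0.30, -0.29 and -0.30, whereas the cell cycle list ranges from -0.41 in experiment 1 to 0.13 in experiment 2.

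Transcription factors of NK cell lineage and maturation had 15 of 24 members lower and a median of -0.06. On the lower side 7 had an unadjusted p under 0.05 (29.2%, against 5.14% of all genes), and none did on the higher side. Without the Tyk2K923E array of experiment 1 the lower side had 2 of 24, where 1004 of 12579 genes had such a p in either direction. Tbx21 and Eomes, the T-box factors that define NK cells, differed by -0.17 and 0.03. Smad3, a transducer of TGF-beta, and Tox, a factor of early NK cell development, differed by -0.45 and -0.32. With the 70th percentile filter Tox differed by 0.021. Genes tied to group 1 innate lymphoid cells had 12 of 13 lower and a median of -0.24. By experiment the medians were -0.37, -0.12 and -0.33, beside -0.47, 0.03 and -0.44 for the T cell markers, whose part was not tested, and the median was -0.14 without experiment 1 and -0.15 without its WT array. Cxcr6, Tnfsf10, Ltb and Itga1 (named above) had the largest differences of this list.

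IL-2 and STAT5 targets, genes that IL-2 is known to induce, had 10 of 18 lower and a median of -0.02, with Pim2 at -0.45, Cish at -0.29 and Il2ra, the high-affinity IL-2 receptor chain, at 0.28. Il2rb differed by 0.02. Among common gamma chain and IL-18 family receptors, Il18r1 and Il18rap, the chains of the IL-18 receptor, both differed by -0.29.

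Cell cycle genes had 31 of 36 lower with a median of -0.08, and this rested on 1 experiment: the medians were -0.41, 0.13 and 0.02. Without experiment 1 the list median was 0.08. Mki67, a proliferation marker, differed by -0.34, and only Ccnb2 (-0.27) had an unadjusted p under 0.05. Respiratory chain and glycolysis genes had medians of 0.04 and 0.03, and none of their 25 and 18 members reached an unadjusted p of 0.05. Integrated stress response genes had 20 of 26 higher with a median of 0.06, with Vldlr at 0.28 and Slc7a11, the cystine transporter, at 0.49. Slc7a11 differed by 1.13, 0.05 and 0.28 in the 3 experiments, and by 0.17 without experiment 1, 0.21 without its WT array and 0.28 without its Tyk2K923E array. Survival genes and immediate early genes had medians of -0.05 and -0.01, with Nr4a2, a nuclear receptor induced by activation, at 0.47.

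No marker of another cell type passed the threshold. Of 13 T cell markers tested 12 were lower, with a median of -0.36 and 7 at an unadjusted p under 0.05 (53.8%, against 5.14% of all genes). The median was -0.20 without experiment 1, and -0.21 without its WT or without its Tyk2K923E array. Cd8a read 9.20, 8.72 and 9.27 in WT cells and 8.01, 8.58 and 7.85 in Tyk2K923E cells, so the genotypes nearly met in experiment 2 (difference -0.92 ± 0.21, adjusted p = 0.173). Bcl11b, a T cell transcription factor, differed by -0.42 ± 0.06 (adjusted p = 0.0521) and Cd3e, a T cell receptor chain, by -0.38. The summed level of the list was 12.83 to 13.34 in WT cells and 12.65 to 12.92 in mutant cells (log2), and it differed by -0.58, 0.08 and -0.46 in the 3 experiments. Cd4 and Foxp3 did not pass the filter. In experiment 2, with 1 array per genotype, the medians were 0.03 for the T cell markers, -0.29 for the type I interferon-stimulated list and -0.28 for the NKG2 group. What part the T cell markers have in those lists was not tested.

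Of 11 basophil and mast cell markers 4 passed the filter, 3 of them higher, with a median of 0.52 that was 0.08 over all 11 with no filter. None passed the threshold. The summed level was 10.59 to 11.01 in WT cells and 11.04 to 11.65 in mutant cells, a difference of 0.65, 0.57 and 0.45 in the 3 experiments. Mcpt8, a protease of basophils, read 10.04, 10.28 and 9.87 in WT cells and 10.99, 11.04 and 10.47 in Tyk2K923E cells, without overlap (difference 0.77 ± 0.11, adjusted p = 0.0684). Cpa3, the mast cell carboxypeptidase, differed by 0.91 ± 0.21 (adjusted p = 0.19). Defining genes of these cells, Fcer1a, Ms4a2, Prss34 and Gata2 among them, did not pass the filter. What part these markers have in other results was not tested. Ctsg, a protease of myeloid granules, differed by 0.89, while the neutrophil gene Mmp9 differed by -0.54 and Ighm, the B cell heavy chain, by -0.42.

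Mid1, an X-linked ubiquitin ligase that binds microtubules, had the largest rise. It read 5.83, 6.92 and 6.61 in WT cells and 7.26, 8.32 and 8.34 in Tyk2K923E cells. The array of experiment 1 was the lowest of its genotype both times, and within each experiment the mutant array was higher, by 1.43, 1.40 and 1.73. Mid1 rose by 1.52 ± 0.16 with the experiments paired (adjusted p = 0.0375) and did not pass without pairing (adjusted p = 0.531). Myrf, a membrane-bound transcription factor known from myelinating cells, read 6.07, 5.92 and 6.03 against 6.66, 6.54 and 6.45. It rose by 0.54 ± 0.06 (adjusted p = 0.0375), a small difference over tight replicates.

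Other genes on the higher side missed the threshold. The chromosome 12 transcripts AF357355 and AF357425 differed by 1.15 ± 0.29 and 0.88 ± 0.21 (adjusted p = 0.212 and 0.191). AF357355 differed by 2.18, 0.80 and 0.47 in the 3 experiments, and by 0.63 without experiment 1 and 0.68 without its Tyk2K923E array. Both are small transcripts of the locus of the long noncoding RNA Rian. Rian itself, named after its value was seen, read 4.89, 5.004 and 4.82 in WT cells and 5.49, 6.11 and 5.71 in mutant cells (difference 0.87 ± 0.12, adjusted p = 0.0521). Of the 6 arrays compared, only the Tyk2K923E arrays of Rian and of AF357355 reached the array medians. Sema3d, a secreted guidance protein, differed by 0.89 ± 0.15 (adjusted p = 0.0814), and B4galnt2, a glycosyltransferase, by 1.00 ± 0.24 (adjusted p = 0.191). Outside the named genes, 3 of 8283 probe sets without a single gene symbol passed the threshold (0.0362%), all 3 with the same values and a difference of -3.15 ± 0.21. On the lower side Cd7, an immunoglobulin-family receptor of T and NK cells, differed by -0.98 ± 0.15 (adjusted p = 0.0696).

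Tyk2K923E cells and the cells labelled Tyk2-/- were set against each other directly. Of 12579 genes, 3 differed between them (0.0238%, paired limma), and none of these was among the 11 that separated Tyk2K923E from WT cells. Wdfy4, a gene of dendritic cell cross-presentation, averaged 5.86 in WT cells, 5.86 in Tyk2K923E cells and 8.29 in the cells labelled Tyk2-/-. Ckap4, a protein of the endoplasmic reticulum, averaged 5.25, 5.42 and 7.39, and Mapk8, the kinase JNK1, 7.62, 7.67 and 6.51 in the same order. Tyk2K923E minus the libraries labelled Tyk2-/- was -2.43 ± 0.07 for Wdfy4 (adjusted p = 7.01e-06), -1.98 ± 0.08 for Ckap4 (7.43e-05) and 1.16 ± 0.08 for Mapk8 (0.00316). Mapk8 was not called without the Tyk2K923E array of experiment 3 (adjusted p = 0.0541) or without the array labelled Tyk2-/- of experiment 1 or 3 (0.0526 and 0.0603). For each gene the kinase-inactive cells stood with WT, at differences of -0.01, 0.16 and 0.05 from it.

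The libraries labelled Tyk2-/- did not have less Tyk2 signal than WT (above), so directions drawn from them rest on that label. The comparisons of both genotypes with WT share the WT arrays, so their values are only set side by side. Ifi27 differed from WT by -1.80 in Tyk2K923E cells and by -1.35 in the libraries labelled Tyk2-/-, Casp4 by -1.80 and -1.99, Rtp4 by -1.40 and -1.11, and Ifi214 by -1.15 and -1.24. Mx1 differed by -0.96 and -0.54, Lgals3bp by -0.63 and -0.38, and Cfap300 by 1.01 and 0.93. Mid1 differed by 1.52 and 0.30, Cd160 by -0.68 and -0.24, Itga2 by -0.71 and -0.39, and Myrf by 0.54 and 0.23. None of the 11 differed between the mutants at the threshold, with the smallest adjusted p at 0.102 for Mid1 (difference 1.22 ± 0.16) and the next at 0.231 for Cd160 (-0.44 ± 0.07). A p that misses the threshold with 3 arrays per genotype does not show that the mutants are alike.

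Against WT, the type I interferon-stimulated list had a median of -0.29 in Tyk2K923E and -0.25 in the libraries labelled Tyk2-/-, with 51 of 54 lower in each. Medians of the interferon-gamma-inducible list were -0.29 and -0.12, those of the NKG2 group -0.33 and -0.31, those of the death ligands -0.29 and -0.02, and those of the T cell markers -0.36 and -0.11. Igtp differed from WT by -0.45 in Tyk2K923E and by -0.02 in the libraries labelled Tyk2-/-, and the difference between the mutants (-0.43 ± 0.09) had an adjusted p of 0.397. Serpinb9b differed by 0.51 and -0.12, with an adjusted p of 0.111 between the mutants. Usp18 and Ccl5 were nearly level between them, with differences of 0.06 ± 0.19 and 0.05 ± 0.14.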

How the data were processed

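RNA of 9 cultures was hybridised to Affymetrix arrays with WT PLUS chemistry, per the labels' protocols. The deposited values are log2 values per probe set, normalised by the authors with RMA in Partek 6.6, per the submitters' processing notes (the RMA version, the build and the annotation are not given in the sources used here), and were used without further transformation. Of 41345 probe sets, 23521 carried 1 gene symbol in the platform annotation, 1814 several and 16010 were not listed. Those with 1 symbol were kept at or above the median of their array on at least 3 of 9 arrays (13245), and the brightest stood for a gene where several passed (530 genes), leaving 12579. Chromosomes and gene order came from RefSeq (GRCm38.p6, 12511 genes matched).

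The test was limma (lmFit, eBayes) over all 9 arrays, with the experiment as an additive block, 4 residual degrees of freedom and a prior of 4.01, and Benjamini-Hochberg adjustment with a threshold of 0.05. The design text names 3 independent experiments as the biological replicates, and the samples were paired by experiment on that ground. WT and Tyk2K923E arrays of the same experiment deviated from their genotype means together (correlation 0.551 to 0.787, against -0.71 to 0.559 across experiments). These ranges overlap, and centring each genotype on its 3 arrays lowers the correlations across experiments in advance. The correlations therefore do not establish the pairing. The fit without the block stands beside the calls. Differences are Tyk2K923E minus WT unless stated, with SEs from the fit and SDs over 3 arrays. The number of arrays limits the precision.

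The named genes were Tyk2, all genes past the threshold, the 10 largest rises and falls with an unadjusted p under 0.01 and 1 sign in 3 experiments, up to 4 members per list by p, and key genes of the pathway, and other list members were named to describe a list. The 26 pathway and 9 marker lists (638 distinct members, 480 tested) and the genes were chosen with earlier results of these data known, and lists were described by counts and medians without a test. A summed level is the log2 of the sum of a list's linear values.

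Simulated data with 12579 genes were built with additive experiment effects and normal noise, both taken from the paired fit. On them the paired fit recovered 83.6%, 97% and 98.5% of genes changed by log2 0.5, 1 and 2 with 5 false calls. The unpaired fit recovered 35.8%, 71.6% and 93.9% with 0. This setting favours the paired fit in advance. It therefore checks the code and does not give the power on the real arrays or show which fit suits them. Alternatives covered the block, the arrays in the fit, the filter, normalization, the variance prior, array weights, probe set averaging, the threshold and leaving out arrays or experiments. Fits were run with limma 3.58.1 and statmod 1.5.0 under R 4.3.3, and the promoter search and plots with pandas 2.3.3, scipy 1.17.1 and matplotlib 3.10.9 under Python 3.11.15.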

Additional observations from a re-analysis of the deposited data

Results flagged for a closer look

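Among probe sets without a single gene symbol, 3 of 8283 (0.0362%) differed between Tyk2K923E and WT cells in the paired limma fit, and these lie outside the comparison of genes. Probe sets 17548738, 17548740 and 17548742 hold identical values and count as 1 measurement. They read 8.26, 9.28 and 9.20 in WT cells, 5.57, 6.20 and 5.50 in Tyk2K923E cells and 8.66, 9.56 and 9.60 in the libraries labelled Tyk2-/-. The difference from WT was -3.15 ± 0.21 (SE, adjusted p = 0.00815, and 0.0412 without pairing), larger than that of any named gene, and the libraries labelled Tyk2-/- were not lower than WT on any array of the same experiment. The gene they measure is not named here.

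Wdfy4, Ckap4 and Mapk8 were picked out because the mutant genotypes differed between themselves, by -2.43, -1.98 and 1.16 (Tyk2K923E minus the libraries labelled Tyk2-/-, whose Tyk2 signal was not below WT), while Tyk2K923E cells were close to WT. Wdfy4 and Mapk8 both lie on chromosome 14.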

How the results depend on the processing

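The 11 genes that separated Tyk2K923E from WT cells became 1 without the replicate block, 2 with only the arrays of both genotypes compared, 1 with no filter, 29 with a 70th percentile filter (6 of the 11 among them), 20 after median centring, 17 after quantile normalization, 41 with an intensity trend, 66 with array weights and 54 at an adjusted p of 0.1. Cfap300, Ifi214, Mx1, Myrf and Rtp4 were too dim for the 70th percentile filter and were not tested in that fit. All 11 were among the calls after centring, quantile normalization, trend and weights. Lower calls outnumbered higher ones in each of these (14 to 6, 12 to 5, 29 to 12 and 47 to 19). Leaving out an array or an experiment gave 1 to 6 calls, and Ifi27 was called in every alternative. The 3 genes between the mutants became 2 to 6 with an array or experiment left out and 3 or 4 otherwise. Wdfy4 and Ckap4 were called in each of these, and Mapk8 was not called without experiment 3 (adjusted p = 0.39) or without any of 3 single arrays.

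Of genes that missed the threshold, Jak1 changed sign with array weights (0.0078), Slc2a1 with the mean over probe sets (-0.058), Tox with the 70th percentile filter (0.021) and Wdfy4 with array weights (0.002). With arrays or experiments left out, differences ran from -0.043 to 0.062 for Eomes, -0.028 to 0.043 for Gzmb, -0.022 to 0.016 for Jak1, -0.036 to 0.16 for Mapk8, -0.29 to 0.0097 for Ncr1, -0.16 to 0.016 for Stat5b, -0.23 to 0.0026 for Tyk2 and -0.049 to 0.056 for Wdfy4. With only the 250 bases before the start, the core was in 3.12% and the gamma-activated site in 6.92% of promoters. In the type I interferon list the core was then in 36.4%. Without pairing, 7 of 14 interferon-gamma-inducible genes, 6 of 26 activating receptors, adaptors and kinases and 3 of 12 chemotaxis receptors were lower at an unadjusted p under 0.05. So were 6 of 9 death ligands and TNF superfamily members, 4 of 24 NK lineage factors and 4 of 13 T cell markers. Over all genes this share was 2.41%. The causes were not tested. Genes near the array medians (about 5.4) have no measured background, which limits how far a fall can be read.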
